A study of Homo sapiens with 6 samples.

Results

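The 37 genes described here carry out or control the oxidation of fatty acids and the handling of ketone bodies, and were read from RNA sequencing of liver tumour xenografts. They were chosen by symbol, not by a cutoff on their values, though earlier results of these data were known. The set holds the enzymes of mitochondrial and peroxisomal beta-oxidation, the carnitine system, the electron transfer flavoprotein, ketone enzymes and a few regulators. All 37 were found among the 58515 symbols that stood on a single row of the tables, and 34 of them were abundant enough to be tested. The tumours were grown from MHCC97L, an established human hepatocellular carcinoma line. The series holds 3 control libraries (Ctrl A, B and C) and 3 libraries of tumours given recombinant human lumican (rhLUM A, B and C). Lumican is a secreted proteoglycan of the extracellular matrix. The model is 1 cell line in a host whose species is not given in the sources used here. Dose, route, duration and the number of animals are not given either, nor is it stated that each library is a tumour of its own. The p-values thus rest on the scatter among these libraries alone, and that scatter may be technical.

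Beta-oxidation shortens a fatty acid by cutting acetyl units from its acyl-CoA. Long chains enter mitochondria through the carnitine shuttle, are dehydrogenated, hydrated, dehydrogenated again and cleaved, and the electrons of the first step pass through the electron transfer flavoprotein to the respiratory chain. Peroxisomes shorten very long and branched chains with an oxidase in place of the first dehydrogenase. In liver, the acetyl-CoA formed in fasting is turned into ketone bodies, which hepatocytes export and do not burn. PPAR-alpha, the nuclear receptor encoded by PPARA, is the main activator of these genes in the fasted liver.

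Levels are given as TPM, a share of the library per transcript length, so levels of different genes may be compared. TPM keeps no depth, so the depth of the libraries is unknown and no counting interval can be given. Differences between groups are log2 fold changes of TPM + 1, rhLUM minus Ctrl, with an adjusted p from limma over 14781 genes that averaged at least 1 TPM. An adjusted p under 0.05 is called higher or lower. The groups differed widely: 44.5% of all genes tested were called higher and 22.3% lower, and the groups did not overlap for 71.4%. Transcripts of the mitochondrial genome took 20.5% to 20.7% of TPM in Ctrl and 14.3% to 14.5% in rhLUM, which leaves a larger share for all other genes. Median-of-ratios scaling, which sets the libraries level on their typical gene, moved the median of all genes from 0.16 to 0.01 and gave 34.4% higher and 30.8% lower. Members are therefore given on both scales where the call differs.

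Sequences around the transcription start were searched because many members are known targets of nuclear receptors that bind the hexamer AGGTCA. RefSeq promoters of GRCh38.p14, each 300 bases long and reaching past the start, were matched for 30 of the 37 members. Only 1 promoter per symbol was used, so other starts of a gene were not searched. The PPARGC1A window (chr4:24472856-24473155) lies outside the annotated gene (chr4:23755041-23904089), and that of ETFB (chr19:51354793-51355092) inside it. The hexamer, on either strand, stood in 1 of the 30 (3.33%) and in 13.9% of 27305 promoters. The extended site TCAAGGTCA, which contains the hexamer, stood in none of the 30 and in 0.359% of all. A direct repeat of the hexamer with 1 base between the copies, the classical PPAR element, stood in none of the 30 and in 0.022% of all. These counts say only which letters lie in this window. Shown here are parts of the upstream windows that no annotated exon covers, written from 5′ to 3′ on the strand of the gene, with matches to the hexamer in capitals. HADHA had the largest estimate among the members and ACADVL the lowest, on the log2(TPM + 1) scale as deposited. HADHA and HADHB lie head to head with 306 bases between their RefSeq starts. In the window upstream of HADHA, the longest stretch that no annotated exon covers has 21 bases. CREB3L3 is shown because it holds the only match, which begins 215 bases before its start, and was chosen after the match was seen.
HADHA (chr2:26244727-26244747, minus strand): ggggcagggctaaggggccgg
ACADVL (chr17:7216875-7217117, plus strand): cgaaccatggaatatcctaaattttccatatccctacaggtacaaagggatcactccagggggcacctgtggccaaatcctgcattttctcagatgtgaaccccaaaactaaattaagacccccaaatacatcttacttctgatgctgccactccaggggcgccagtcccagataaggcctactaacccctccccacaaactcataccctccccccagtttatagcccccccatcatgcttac
CREB3L3 (chr19:4153381-4153600, plus strand): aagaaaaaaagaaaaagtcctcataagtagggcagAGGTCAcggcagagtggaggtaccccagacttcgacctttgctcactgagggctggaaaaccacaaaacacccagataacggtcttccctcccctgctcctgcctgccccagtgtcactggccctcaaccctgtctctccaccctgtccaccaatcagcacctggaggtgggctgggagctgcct

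Of the 34 tested members, 21 rose with rhLUM, 8 fell and 5 had no call. The background shares given above are 44.5% and 22.3%. The median difference of the tested members was 0.31, and that of all genes tested was 0.16. By a log2 fold change of at least 0.5, 11 rose and 3 fell, where 25.9% of all genes rose and 12.3% fell by that much. The groups did not overlap for 29 of the 34, beside the 71.4% of all genes. After median-of-ratios scaling 18 rose and 9 fell, with a median of 0.15, beside 34.4%, 30.8% and 0.01 for all genes. The calls lost by that scaling were the rises of HADHB, ETFDH and ACAT1, and ECI1 was then called lower. OXCT1, FGF21 and PPARGC1A were not tested: their highest values in any library were 0.61, 0.21 and 0.03 TPM.

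**Figure D1:**
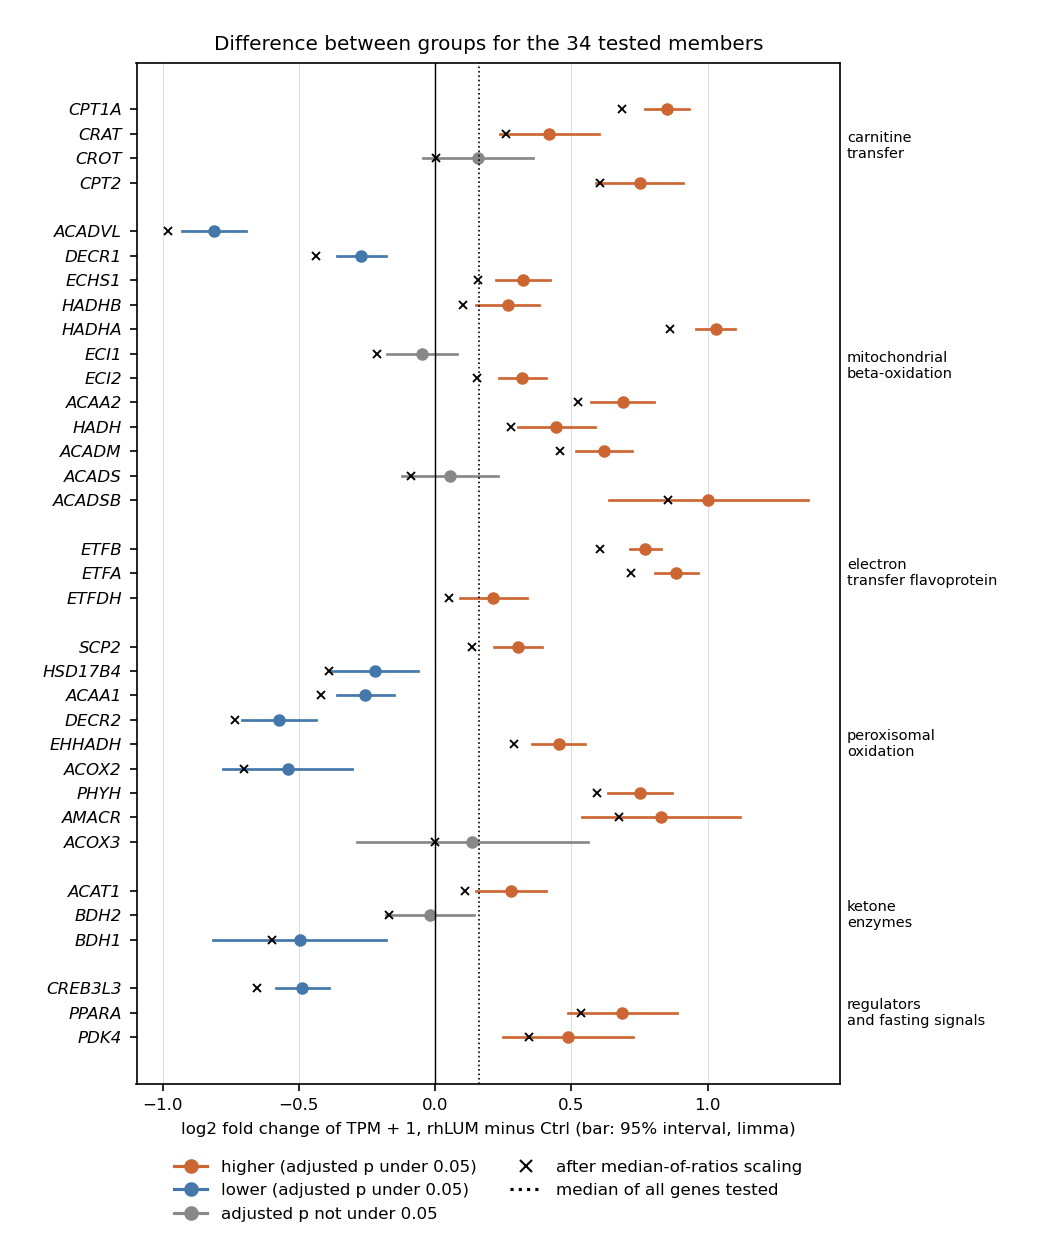
Log2 fold change of TPM + 1 (x axis, rhLUM minus Ctrl) for the 34 tested members, grouped by role. Points are limma estimates with 95% intervals, coloured by call, crosses are the same estimates after median-of-ratios scaling, and the dotted line marks the median of all genes tested. The estimates run from -0.81 for ACADVL to 1.03 for HADHA, and each cross lies to the left of its point.

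Of the 4 members of the carnitine system, 3 rose, none fell and CROT had no call, with a median of 0.58. Of all genes tested, 44.5% rose and 22.3% fell, with a median of 0.16. CPT1A (chr11:68754620-68844410), the rate-limiting carnitine palmitoyltransferase of the outer mitochondrial membrane, stood at 32.49, 31.35 and 31.45 TPM in Ctrl and 57.70, 57.59 and 59.08 TPM in rhLUM. The rhLUM libraries lay close together and far above Ctrl, with a log2 fold change of 0.85 (SE 0.03, adjusted p = 1.31e-06). CPT2 (chr1:53196429-53214197), which rebuilds acyl-CoA inside the mitochondrion, stood at 4.76, 4.56 and 4.49 TPM in Ctrl and 8.84, 8.22 and 8.24 TPM in rhLUM. It rose by 0.75 (SE 0.07, adjusted p = 5.41e-05), again with no overlap. CPT2 overlaps C1orf123 on the opposite strand, which was the more abundant of the 2 (36.6 and 33.8 TPM), and whether counting used strand is not given. The short-chain carnitine acetyltransferase CRAT rose from 12.1 ± 0.68 to 16.6 ± 1.52 TPM (SD, n = 3 per group), a difference of 0.42. The peroxisomal octanoyltransferase CROT had 9.73 ± 1.13 and 10.9 ± 0.30 TPM, groups that overlapped (0.16, adjusted p = 0.144).

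The enzymes of mitochondrial beta-oxidation were divided. Of 12 tested, 8 rose (66.7%) and 2 fell (16.7%), beside 44.5% and 22.3% of all genes tested, with a median of 0.32. ACADVL (chr17:7217125-7225273), the very long chain acyl-CoA dehydrogenase, was the most abundant member in Ctrl. It stood at 415.41, 439.51 and 448.12 TPM in Ctrl and 264.17, 233.39 and 244.63 TPM in rhLUM. All rhLUM libraries lay well below all Ctrl libraries, and the difference was -0.81 (SE 0.05, adjusted p = 8.02e-06). ACADM (chr1:75724347-75787575), the medium-chain dehydrogenase, went the other way, from 19.33, 19.38 and 18.94 TPM to 30.40, 28.89 and 30.95 TPM. Its rise was 0.62 (SE 0.04, adjusted p = 1.63e-05). ACADM shares exonic sequence with RABGGTB on the same strand, a gene at 79.6 TPM in Ctrl and 90.2 TPM in rhLUM. ACADSB (chr10:123008979-123058311), which acts on short branched chains from isoleucine, stood at 4.71, 5.13 and 4.49 TPM in Ctrl and 7.98, 11.81 and 12.44 TPM in rhLUM. It rose by 1.00 (SE 0.15, adjusted p = 0.000914), and rhLUM A was the lowest of its group by a wide margin. The straight short-chain dehydrogenase ACADS had 5.67 ± 0.37 and 5.93 ± 0.18 TPM and no call (0.06, adjusted p = 0.531). The ratio of ACADVL to ACADM was 22.6 ± 1.09 in Ctrl and 8.22 ± 0.41 in rhLUM.

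The trifunctional protein, which holds the last steps for long chains, is built from alpha subunits (HADHA) and beta subunits (HADHB). HADHA (chr2:26190635-26244726) stood at 62.71, 61.74 and 63.42 TPM in Ctrl and 126.49, 127.68 and 132.66 TPM in rhLUM. Its rise was 1.03 (SE 0.03, adjusted p = 3.49e-07), with no overlap. The order of the largest rises depended on the scale: with a pseudocount of 0.1 ACADSB (1.13) stood above HADHA (1.04), and with the length and GC correction ETFA (0.76) stood above HADHA (0.73). HADHB (chr2:26243170-26290468), its head-to-head neighbour described above, had 67.4 ± 3.6 TPM in Ctrl and 81.2 ± 3.22 TPM in rhLUM. HADHB rose by 0.27 (SE 0.05, adjusted p = 0.0022), and by 0.10 after median-of-ratios scaling, where it had no call (adjusted p = 0.109). HADHA and HADHB thus stood at similar levels in Ctrl and apart in rhLUM.

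Further along the spiral, ACAA2 (chr18:49782167-49813960), the mitochondrial thiolase for medium chains, stood at 37.72, 37.29 and 37.83 TPM in Ctrl and 58.29, 65.58 and 60.10 TPM in rhLUM. It rose by 0.69 (SE 0.05, adjusted p = 1.61e-05) without overlap. The hydratase ECHS1 rose from 70.6 ± 1.21 to 88.5 ± 4.53 TPM, and the 3-hydroxyacyl-CoA dehydrogenase HADH from 36.1 ± 2.50 to 49.5 ± 2.29 TPM. Unsaturated chains need auxiliary enzymes, and these did not move as 1 group. The isomerase ECI2 rose from 38.9 ± 0.85 to 48.9 ± 1.17 TPM. Its paralogue ECI1 had 48.6 ± 1.58 and 47.0 ± 3.0 TPM and no call (-0.05, adjusted p = 0.45), but was called lower after median-of-ratios scaling (-0.21, adjusted p = 0.0136). The dienoyl-CoA reductase DECR1 fell from 126 ± 3.33 to 104 ± 4.11 TPM (-0.27). The summed level of the 12 enzymes was 952 ± 18.3 TPM in Ctrl and 904 ± 12.5 TPM in rhLUM. Without ACADVL it was 518 ± 3.63 and 657 ± 16.9 TPM, so the 1 gene set the direction of the sum. ACADVL made up 45.6 ± 0.95% of the sum in Ctrl and 27.4 ± 1.66% in rhLUM.

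Beside 44.5% of all genes tested (median 0.16), all 3 genes of the electron transfer flavoprotein system rose, with a median of 0.77. After median-of-ratios scaling or the length and GC correction, 2 of the 3 flavoprotein genes rose. ETFA (chr15:76215355-76311472), the alpha subunit of this acceptor of electrons from the acyl-CoA dehydrogenases, stood at 131.87, 127.82 and 138.71 TPM in Ctrl and 248.15, 242.70 and 247.35 TPM in rhLUM. Its rise was 0.89 (SE 0.03, adjusted p = 9.96e-07). ETFB (chr19:51345169-51366418), the beta subunit, stood at 235.98, 232.86 and 234.19 TPM in Ctrl and 404.66, 409.14 and 389.19 TPM in rhLUM. It rose by 0.77 (SE 0.02, adjusted p = 4.26e-07), and in rhLUM it was the most abundant member. Both subunits therefore rose with no overlap between groups, ETFA by slightly more than ETFB. ETFDH, the membrane oxidoreductase that hands the electrons to ubiquinone, had 36.0 ± 0.32 and 41.9 ± 2.74 TPM. Its rise of 0.21 (adjusted p = 0.00852) was 0.05 after median-of-ratios scaling (adjusted p = 0.428), and PPID, which overlaps ETFDH on the opposite strand, was more abundant than ETFDH in both groups (56.0 and 82.8 TPM). The 3 genes made up 21.0 ± 0.18% of the members' summed TPM in Ctrl and 31.03 ± 0.33% in rhLUM.

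The peroxisomal enzymes were divided, with 4 of 9 higher (44.4%), 4 lower (44.4%) and a median of 0.14. The share higher and the median are near those of all genes tested (44.5% and 0.16), of which 22.3% were lower. PHYH (chr10:13277796-13302412), the hydroxylase that starts alpha-oxidation of phytanic acid, stood at 12.08, 11.63 and 11.21 TPM in Ctrl and 20.62, 20.39 and 19.90 TPM in rhLUM (0.75, SE 0.05, adjusted p = 1.14e-05). AMACR (chr5:33986178-34008108), the racemase that lets branched chains and bile acid precursors enter beta-oxidation, stood at 8.50, 7.67 and 6.15 TPM in Ctrl and 12.36, 14.12 and 15.34 TPM in rhLUM (0.83, SE 0.12, adjusted p = 0.000731). Neither gene's groups overlapped, though AMACR was more spread within each group than PHYH.

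The bifunctional enzyme EHHADH, a classical PPAR-alpha target, rose from 25.1 ± 0.54 to 34.8 ± 0.88 TPM (0.45). SCP2, which encodes a lipid carrier and the thiolase for branched chains, rose from 127 ± 2.75 to 157 ± 6.73 TPM (0.30). ACOX2 (chr3:58505136-58537319), the oxidase for bile acid precursors and branched chains, fell. It stood at 23.23, 22.41 and 19.81 TPM in Ctrl and 13.22, 14.06 and 16.88 TPM in rhLUM (-0.54, SE 0.10, adjusted p = 0.00222), with rhLUM C nearest to Ctrl. DECR2 (chr16:401826-412487), the peroxisomal dienoyl-CoA reductase, stood at 33.25, 30.70 and 32.75 TPM in Ctrl and 20.20, 22.74 and 21.11 TPM in rhLUM (-0.57, SE 0.06, adjusted p = 9.6e-05). All rhLUM libraries lay below Ctrl for both genes. NME4, which overlaps DECR2 on the same strand, had 97.4 TPM in Ctrl and 74.9 TPM in rhLUM. The thiolase ACAA1 fell from 44.2 ± 1.25 to 36.9 ± 1.46 TPM (-0.26), and the second bifunctional enzyme HSD17B4 from 73.3 ± 7.07 to 62.5 ± 1.38 TPM (-0.22, adjusted p = 0.0225). The HSD17B4 call was lost when Ctrl A, Ctrl C, rhLUM B or rhLUM C was left out (adjusted p = 0.052 to 0.0669). The oxidase ACOX3 had 4.21 ± 1.3 and 4.64 ± 0.58 TPM, overlapping groups and no call (0.14, adjusted p = 0.523).

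**Figure D2:**
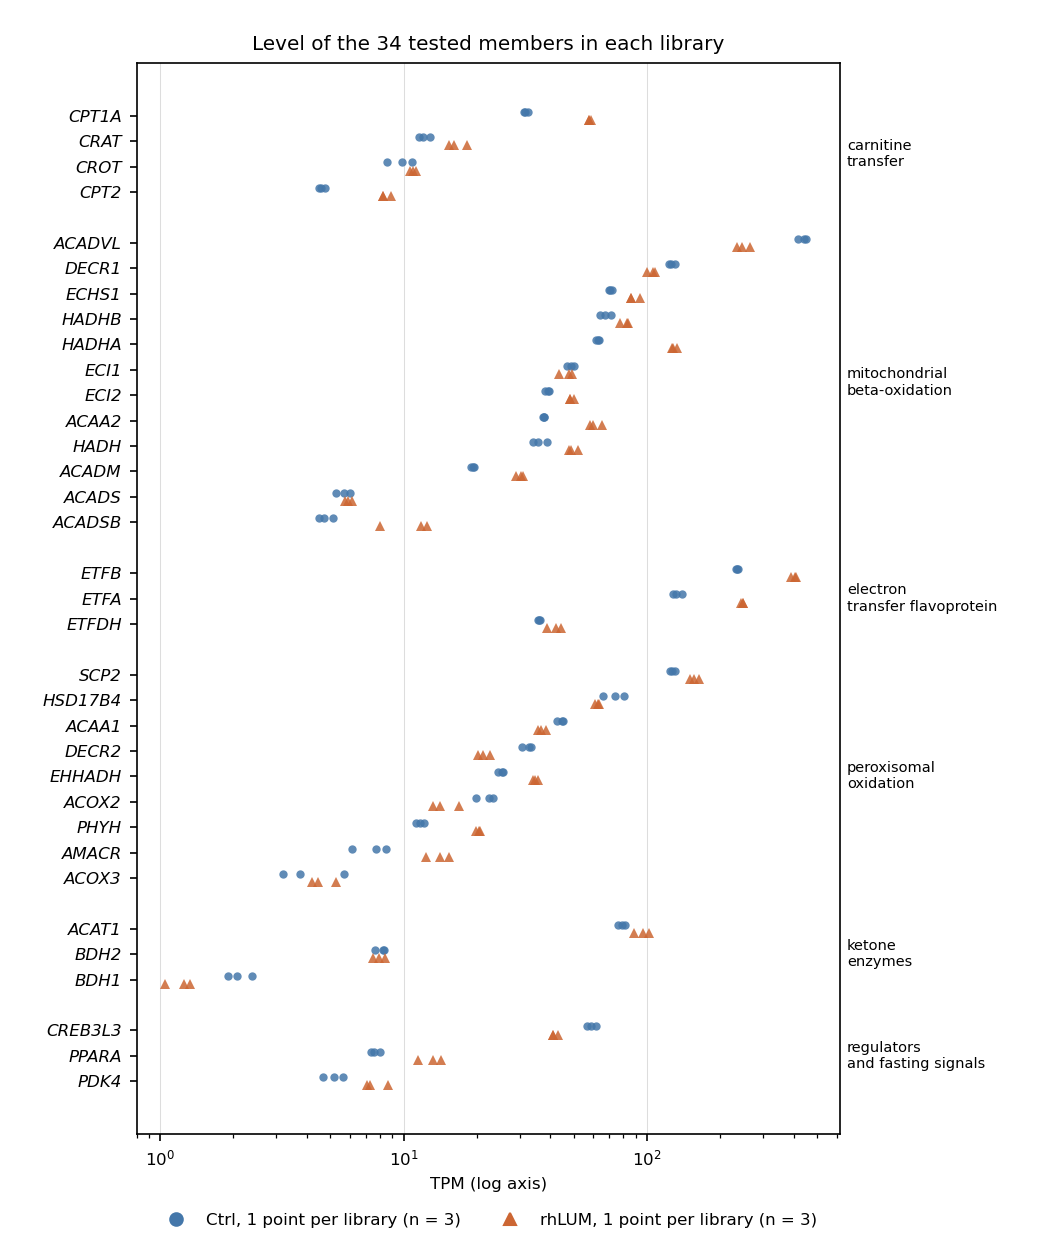
TPM on a log axis (x) for the 34 tested members in each library, grouped by role and ordered by Ctrl level. Circles are the 3 Ctrl libraries and triangles the 3 rhLUM libraries; for ACADVL, ETFB, ETFA and HADHA the symbols of the groups stand clearly apart, and for ACADS, ACOX3, CROT, ECI1 and BDH2 they overlap.

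Of the 3 tested ketone enzymes among the members, 1 rose and 1 fell, with a median of -0.02. For all genes tested the shares were 44.5% and 22.3% and the median 0.16. ACAT1, the thiolase that makes and splits acetoacetyl-CoA, rose from 78.5 ± 2.44 to 95.5 ± 6.69 TPM (0.28), but had no call after median-of-ratios scaling (0.11, adjusted p = 0.118).

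BDH1, the mitochondrial dehydrogenase that interconverts acetoacetate and 3-hydroxybutyrate, fell from a low level, 2.12 ± 0.25 TPM, to 1.21 ± 0.14 TPM (-0.50, adjusted p = 0.0134). At this low level the pseudocount sets the size: with 0.1 in place of 1 the BDH1 difference was -0.76, and after median-of-ratios scaling it was -0.60. Without Ctrl C the BDH1 call was lost (adjusted p = 0.0535). BDH2, a cytosolic dehydrogenase, had 8.06 ± 0.38 and 7.95 ± 0.44 TPM and no call (-0.02, adjusted p = 0.826). OXCT1, the transferase that activates ketone bodies for burning and that hepatocytes lack, was listed at 0 in Ctrl A, Ctrl B and rhLUM A, and at 0.61, 0.07 and 0.06 TPM in Ctrl C, rhLUM B and rhLUM C.

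**Figure D3:**
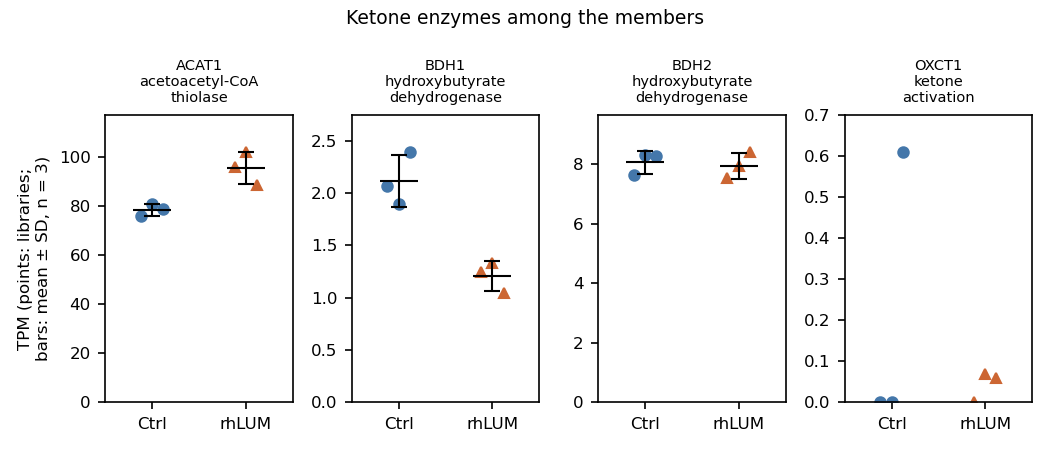
TPM (y axis, each panel with its own scale from 0) of the 4 ketone enzymes among the members. Points are libraries and bars the mean ± SD of 3 libraries, left out for OXCT1, which is listed at 0 in 3 libraries; ACAT1 goes from 78.5 ± 2.44 to 95.5 ± 6.69 TPM, BDH1 from 2.12 ± 0.25 to 1.21 ± 0.14 TPM, and the groups overlap for BDH2.

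Among the regulators, PPARA (chr22:46150521-46243756) stood at 8.0, 7.57 and 7.37 TPM in Ctrl and 11.48, 14.21 and 13.19 TPM in rhLUM. It rose by 0.69 (SE 0.08, adjusted p = 0.000277), with all rhLUM libraries above Ctrl. PDK4, the kinase that spares glucose by switching off pyruvate dehydrogenase and a known PPAR-alpha target, rose from 5.16 ± 0.50 to 7.65 ± 0.87 TPM (0.49, adjusted p = 0.00397). Correction for transcript length and GC content left PDK4 at 0.15 with no call (adjusted p = 0.223). CREB3L3, a membrane-bound transcription factor that acts with PPAR-alpha on ketogenic genes, fell from 59.0 ± 2.31 to 41.8 ± 1.03 TPM (-0.49, adjusted p = 3.95e-05). PPARGC1A, the coactivator of the fasting response, and FGF21, the fasting hormone that PPAR-alpha and CREB3L3 induce, were at or near 0 in all 6 libraries. Their levels were too low to test.

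Ratios of 2 genes within a library do not depend on how libraries are scaled. HADHA to HADHB was 0.931 ± 0.037 in Ctrl and 1.59 ± 0.050 in rhLUM, a log2 difference of 0.77. ETFA to ETFB, subunits of 1 dimer, was 0.567 ± 0.023 and 0.614 ± 0.021, a difference of 0.12. The groups of this ratio nearly met, at 0.5923 in Ctrl C and 0.5932 in rhLUM B. CPT1A to CPT2 was 6.90 ± 0.092 and 6.90 ± 0.33, with overlapping groups (exact permutation p = 1.0, two-sided, n = 3 per group). ACAA1 to ACAA2, the peroxisomal over the mitochondrial thiolase, went from 1.18 ± 0.037 to 0.604 ± 0.053. HSD17B4 to EHHADH, the 2 bifunctional enzymes of peroxisomes, went from 2.91 ± 0.24 to 1.80 ± 0.013. The log2 differences of these last ratios were -0.97 and -0.69. The 4 ratios other than CPT1A to CPT2 had groups that did not overlap and an exact permutation p of 0.1, the smallest that 3 against 3 libraries can give (0.125 adjusted over 5 ratios), so this permutation test cannot pass the threshold. A sixth ratio, BDH1 to OXCT1, was not formed because OXCT1 is listed at 0 in 3 libraries.

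**Figure D4:**
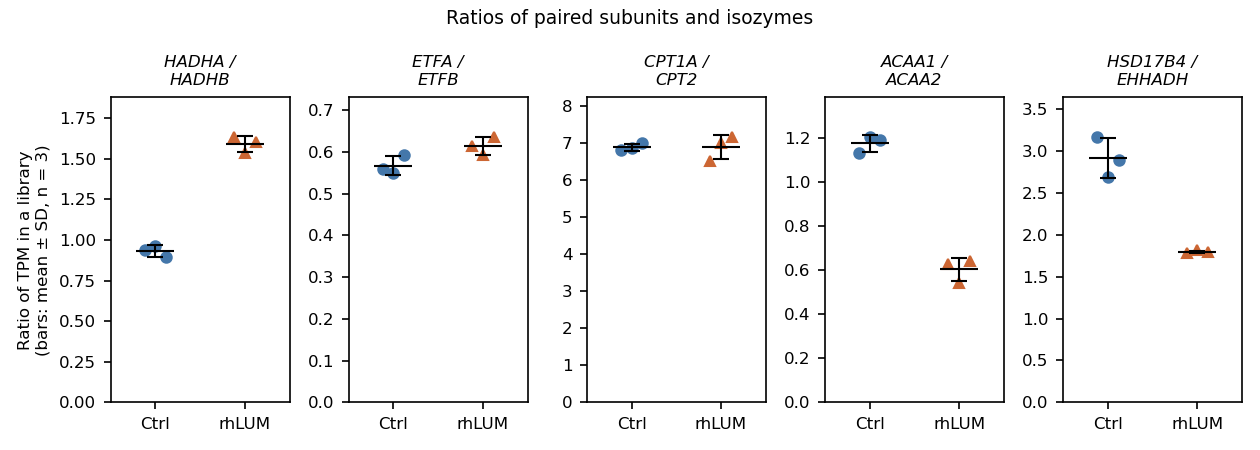
Ratio of the TPM of 2 genes within each library (y axis, each panel with its own scale from 0) for 5 pairs of subunits or isozymes. Points are libraries and bars the mean ± SD of 3 libraries; HADHA to HADHB goes from 0.931 to 1.59, ACAA1 to ACAA2 from 1.18 to 0.604, and CPT1A to CPT2 stays at 6.90.

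Summed over the 37 members, the level was 1921 ± 17.1 TPM in Ctrl and 2220 ± 7.79 TPM in rhLUM, or 0.192 ± 0.0017% and 0.222 ± 0.00078% of the library. The sum of the carnitine members went from 58.2 ± 2.50 to 94.1 ± 1.24 TPM and that of the flavoprotein genes from 403 ± 6.37 to 689 ± 8.97 TPM. Peroxisomal members summed to 347 ± 12.8 and 366 ± 4.68 TPM. In order of level, Ctrl was led by ACADVL, ETFB, ETFA and SCP2, and rhLUM by ETFB, ACADVL, ETFA and SCP2. In rhLUM, ACADVL (247 ± 15.6 TPM) and ETFA (246 ± 2.94 TPM) did not differ beyond their spread. HADHA moved from place 10 of the 34 to place 5 and CPT1A from 19 to 12, while CREB3L3 moved from 11 to 17. The median coefficient of variation of a member within a group was 3.91% in Ctrl and 4.45% in rhLUM. The least precise were ACOX3 in Ctrl (30.8%) and ACADSB in rhLUM (22.5%).

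Neighbouring genes of the pathway were read from 6 further lists with 111 tested genes. Of these, 59 (53.2%) were called higher and 23 (20.7%) lower, beside 44.5% and 22.3% of all genes tested. After median-of-ratios scaling the counts were 44 and 31 of 111, beside 34.4% and 30.8% of all genes on that scale. Among other oxidation and ketone genes, 10 of 21 rose (47.6%) and 5 fell (23.8%), with a median of 0.16. These shares are near the 44.5% and 22.3% of all genes tested, and the median is that of all genes (0.16). The peroxisomal thioesterase ACOT8 rose by 0.74 and TMEM135 by 0.55. The 5 that fell were CPT1B, CPT1C, ACAD8, ACAD11 and NUDT19. CPT1B, the muscle isoform, fell from 10.2 ± 0.70 to 5.11 ± 1.14 TPM and CPT1C, the brain isoform, from 2.51 ± 0.37 to 1.04 ± 0.34 TPM. As CPT1A rose, its share of the summed TPM of the 3 isoforms was 71.4 ± 0.74% in Ctrl and 90.4 ± 1.05% in rhLUM. After median-of-ratios scaling, 5 genes of this list rose and 7 fell, beside 34.4% and 30.8% of all genes on that scale.

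Of 17 genes for propionate and branched-chain oxidation, 12 rose (70.6%) and 2 fell (11.8%), beside 44.5% and 22.3% of all genes. Their median was 0.43. DLD, the lipoamide dehydrogenase shared by several mitochondrial complexes, rose from 97.7 ± 2.03 to 190.1 ± 1.05 TPM (0.95). IVD, the isovaleryl-CoA dehydrogenase that also feeds the electron transfer flavoprotein, rose from 19.9 ± 0.84 to 36.4 ± 0.90 TPM (0.84). ALDH6A1 rose by 1.14 and MCCC2 by 0.53, while the other subunit of the methylcrotonyl-CoA carboxylase, MCCC1, fell (-0.23), as did MMAA (-0.68). After median-of-ratios scaling 11 rose and 4 fell, beside 34.4% and 30.8% of all genes on that scale.

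Of 19 nuclear receptors and coactivators of oxidation, 13 rose (68.4%) and 2 fell (10.5%), beside 44.5% and 22.3% of all genes. Their median was 0.46. PPARG, the paralogue of PPARA best known from fat cells, was far more abundant than PPARA and rose from 96.5 ± 2.08 to 152 ± 2.84 TPM (0.65). The coactivators NCOA2 and MED1 rose by 1.12 and 1.2, and PRKAA1, a catalytic subunit of AMP-activated kinase, by 0.87. The mitochondrial deacetylase SIRT3 (-0.35) and the coactivator PPRC1 (-0.33) fell. Length and GC correction left 9 higher and 3 lower of the 19, beside 4796 and 3826 of 12850 genes.

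Of 13 genes listed as PPAR-alpha targets outside oxidation, 5 rose (38.5%) and 6 fell (46.2%), beside 44.5% and 22.3% of all genes. Their median was -0.11. The desaturase FADS2 rose by 1.66, TXNIP by 1.84, the lipid droplet protein CIDEC by 1.07, PDK3 by 0.70 and PDK2 by 0.61. Both inhibitors of the lipase ATGL fell: G0S2 from 160 ± 1.97 to 43.0 ± 3.57 TPM (-1.88) and HILPDA from 209 ± 3.25 to 116 ± 1.40 TPM (-0.84). The genes of this list thus moved in both directions, and the activity of PPAR-alpha was not tested.

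Of 20 genes for fatty acid uptake and activation, 8 rose (40.0%) and 6 fell (30.0%), with a median of 0.13. The shares of all genes tested were 44.5% and 22.3%, with a median of 0.16. ACSS1, the mitochondrial acetyl-CoA synthetase, rose from 4.55 ± 0.15 to 22.5 ± 0.79 TPM (2.08). The transporter and very long chain synthetase SLC27A2 rose by 0.94 and ACBD3 by 0.57, while the fatty acid binding protein FABP5 fell from 139 ± 4.84 to 81.6 ± 1.81 TPM (-0.76). After median-of-ratios scaling 5 rose and 6 fell, beside 34.4% and 30.8% of all genes on that scale. Of 21 genes for peroxisome biogenesis and transport, 11 rose (52.4%) and 2 fell (9.52%), with a median of 0.18. The peroxins PEX2 (0.71) and PEX19 (0.85) and ABCD3 (0.69), which imports branched acyl-CoA into peroxisomes, rose. PEX10 (-0.55) and ABCD4 (-0.63), a cobalamin transporter, fell. After median-of-ratios scaling 6 of these 21 rose and 4 fell, beside the same 34.4% and 30.8%.

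**Figure D5:**
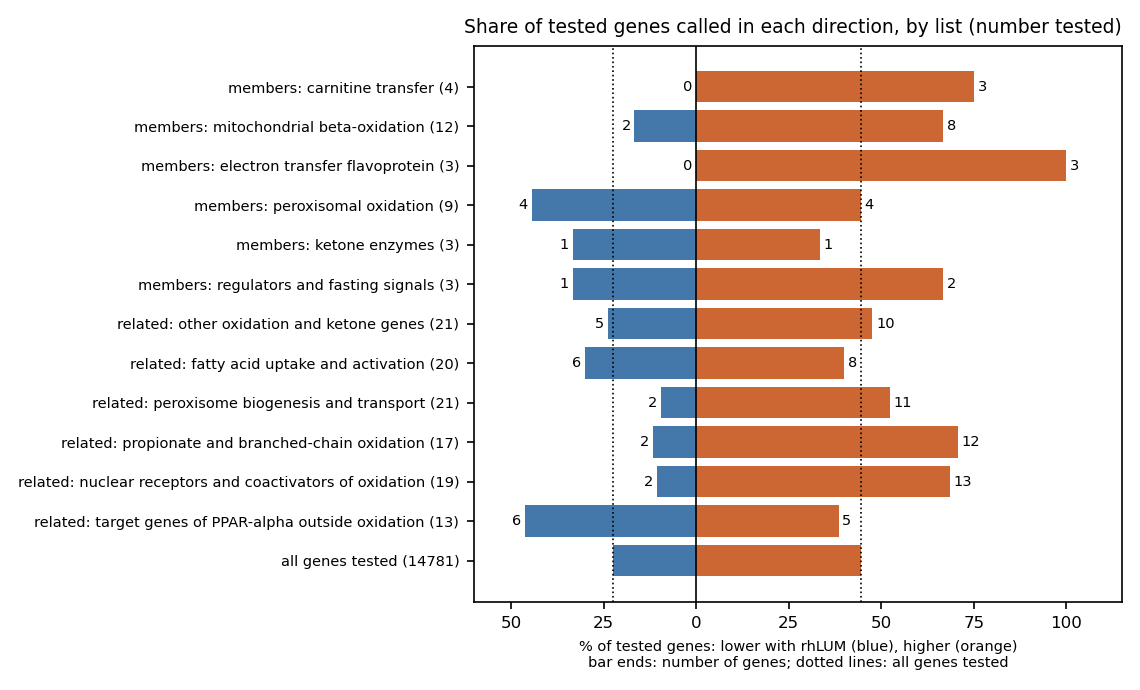
Share of tested genes called lower (blue, left) and higher (orange, right) with rhLUM, in % (x axis), for the members by role and for 6 lists of related genes, with the number of genes at the bar ends. Dotted lines mark the 44.5% higher and 22.3% lower of all genes tested. The blue bars reach farthest for peroxisomal members (4 of 9) and for genes listed as PPAR-alpha targets outside oxidation (6 of 13).

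Markers of other cells and of the liver lineage were read beside these results. The tumours held hepatocyte transcripts: the summed level of 9 markers ranged from 779.63 to 800.76 TPM in Ctrl and from 1356.86 to 1385.87 TPM in rhLUM, with 6 of 8 tested higher and SERPINA1 lower. Median-of-ratios scaling gave 5 higher and 2 lower: AHSG had no call (0.17, adjusted p = 0.105) and AFP was called lower (-0.28, adjusted p = 0.00864). All genes tested had 44.5% higher and 22.3% lower as deposited, and 34.4% and 30.8% after that scaling. ALB rose from 289 ± 3.08 to 825 ± 15.4 TPM. The part of this marker change in the results for the members was not tested. In bulk tumour RNA, fewer cells of a type and less RNA per cell cannot be told apart. Of 6 adipocyte markers, ADIPOQ was listed at 0 in all 6 libraries and 1 was tested, CIDEC, which made up nearly all of the sum (31.56 to 34.63 TPM in Ctrl and 65.50 to 72.74 TPM in rhLUM). Of 7 muscle markers only TNNT1 was tested, with no call as deposited and lower after median-of-ratios scaling (-0.41, adjusted p = 0.0247), and the sums were 10.61 to 12.89 and 8.55 to 11.27 TPM. Fibroblast sums were 14.38 to 15.38 TPM and 10.03 to 13.65 TPM, with COL1A1 higher (no call after median-of-ratios scaling) and DCN lower of 4 tested. COL1A1 ranged from 2.64 to 4.08 TPM in Ctrl and from 4.09 to 5.89 TPM in rhLUM. Its call was also lost with the length and GC correction and with a replicate block. Leaving out Ctrl A, Ctrl C, rhLUM A or rhLUM C lost it too. Of 3 endothelial markers tested PECAM1 rose, CDH5 fell and KDR had no call (sums 21.64 to 23.01 and 26.94 to 31.76 TPM). Of 3 leukocyte markers tested LYZ and CD68 rose and ITGAM fell (sums 222.18 to 222.95 and 301.89 to 305.89 TPM), while PTPRC, which all leukocytes carry, stayed at or under 0.23 TPM.

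Members that rose and fell also had different median lengths and GC contents of their annotated transcripts, a difference that was not tested. The 21 that rose had a median transcript length of 1499.5 bases and a median GC content of 47.5%, against 1197.25 bases and 57.8% for the 8 that fell. The medians of all genes tested that had these values were 1662 bases and 49.5%. A correction of each library for length and GC content was fitted over 12850 genes. With it 18 members rose and 8 fell, beside 4796 and 3826 of the 12850 genes. The medians of the same 21 and 8 members were 0.44 and -0.51, beside 0.62 and -0.49 without it. The median of all genes went from 0.16 to 0.05, so the correction also moved the general level. The part of this shift in the results for the members was not tested. The rises of HADHB (0.08), ETFDH (0.06) and PDK4 (0.15) had no call under that correction. HADHB and ETFDH had no call after median-of-ratios scaling either. Of the tested members, 14 overlap another gene or have a pseudogene named for them in the GENCODE release 29 annotation that is listed in the tables. For 5 of these the partner stood at 50% or more of the member's level in Ctrl or rhLUM: ACADM, CPT2, DECR2 and ETFDH, described above, and BDH2, whose partner SLC9B2 had 7.31 and 10.6 TPM. How the authors' counting divided reads between such partners is not given in the sources used here. The level of PTPA, which overlaps CRAT on the opposite strand, was not read. Other overlapping genes were not read either, among them AC008750.8 and AC008750.4 at ETFB and AC090227.1 at ACAA2. ACADVL overlaps DLG4, which stood at under 1% of its level (0.351% in Ctrl and 0.412% in rhLUM).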

How the data were processed

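RNA of 6 MHCC97L xenograft libraries, 3 Ctrl and 3 rhLUM, was sequenced after poly-A selection, per the labels' protocols. STAR 2.7.8, RSEM 1.2.31 and GRCh38 are named in the submitters' processing notes. The authors deposited TPM per gene symbol, 1 table of 60725 rows per library, per the file headers. Not given in the sources used here are the annotation release, the strand setting and any removal of host reads. A total of 2210 rows under 313 shared symbols were left out. The design allowed for counts or TPM, and the tables held TPM, so a linear model on log2(TPM + 1) was fitted by limma 3.58.1 (R 4.3.3), with group alone as a term, a variance trend and 4 residual degrees of freedom. The 14781 genes whose mean reached 1 TPM were kept. All p-values are two-sided with Benjamini-Hochberg adjustment over all genes tested. The fit was checked on simulated data. Ratios were tested by exact permutation. Positions, lengths and GC content came from GENCODE release 29 on GRCh38, matched by symbol, and promoter sequences from RefSeq on GRCh38.p14. A gene's length was the median, and its GC content the mean, over its annotated protein-coding transcripts where it had any. The members, the lists and the tests were chosen with earlier results of these data known. By the rule for named genes, members past the threshold by a log2 fold change of at least 0.5 with groups that do not overlap are given in every library, other members by group means, and of each related list up to 4 genes with the smallest p, others only where a count of 5 or fewer needs them. Some genes that the rule would name are not reported here. Alternatives were median-of-ratios scaling, rescaling without the mitochondrial genome, a pseudocount of 0.1, no filter, no variance trend, a replicate block, a length and GC correction and leaving out each library. Levels are shares of a library: a change in other abundant transcripts moves every TPM. Protein sequences were not used here.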

Additional observations from a re-analysis of the deposited data

How the results depend on the processing

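Members called higher and lower numbered 21 and 8 as reported, 18 and 9 after median-of-ratios scaling, 20 and 9 after rescaling without the mitochondrial genome, 18 and 8 with the length and GC correction, 21 and 7 with no filter, and 21 and 8 with a pseudocount of 0.1 or without the variance trend. Of all genes tested, 44.5% and 22.3% were called higher and lower as reported, and 34.4% and 30.8% after median-of-ratios scaling. Rescaling without the mitochondrial genome gave 5573 and 4121 of 14766 genes, and the length and GC correction 4796 and 3826 of 12850. Leaving out each library gave 21 to 22 members higher and 6 to 8 lower. With the replicate letter as a replicate block the counts were 21 and 8, with no call changed among the members. Deviations of libraries with the same letter correlated at 0.03, -0.02 and 0.08, and those with different letters at -0.08 to 0.05. No clear deviation shared by letter was seen. With 3 libraries per group these values cannot exclude that a letter marks a shared animal or batch. Median-of-ratios scaling left 5 members lower by a log2 fold change of at least 0.5 (3 as reported), a count chosen after seeing the data. Of all 14781 genes tested, 2562 were lower by that much after the scaling and 1812 as reported. Calls lost beyond those in the report were ETFDH without the mitochondrial genome (0.10, adjusted p = 0.12) and HSD17B4 with no filter (adjusted p = 0.05335), and calls gained were ECI1, lower, without the mitochondrial genome (-0.16) and CROT, higher, without Ctrl A (0.23, adjusted p = 0.0487). Only members with no call changed sign: CROT and ACOX3 with the length and GC correction (-0.1026 and -0.0435), ACADS after median-of-ratios scaling and without the mitochondrial genome (-0.0878 and -0.0425), ACOX3 and BDH2 without Ctrl B (-0.0031 and 0.0009), BDH2 without rhLUM A (0.0162) and ECI1 without rhLUM C (0.003). Leaving out each library gave -0.0848 to 0.003 for ECI1, -0.0031 to 0.3299 for ACOX3 and -0.0539 to 0.0162 for BDH2. The log2 ratio of CPT1A to CPT2, -0.0012 as reported, was 0.10 with a pseudocount of 1 and -0.0293 to 0.0384 when a library was left out. The cause was not tested in any of these. The 2 scaling alternatives moved the median of all genes by -0.15 and -0.10, and the length and GC correction by -0.12. With TPM alone depth is unknown, so no counting error can be given for low members such as BDH1.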
